A study of Homo sapiens with 6 samples.

Results

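The miR-29 guide strands are the mature miRNAs hsa-miR-29a-3p, hsa-miR-29b-3p and hsa-miR-29c-3p, written below without the species prefix. They were picked by name, and each was listed in all 6 count tables, so 3 of the 503 listed miRNAs are described. The libraries were made from exosomes, small vesicles that cells release, of MDA-MB-231 cells, an established line from a human breast carcinoma of the triple-negative kind. Its stable clones carried a control hairpin (shNC, 3 libraries) or a hairpin against MCU (shMCU, 3 libraries), the gene for the pore of the mitochondrial calcium uniporter. Both groups were grown for 48 h in medium with 10% serum described as exosome-free, and the series asks whether exosomal miRNAs differ when MCU is lowered. The labels give neither the number of clones nor separate cultures for the libraries, so p-values cover only the spread among the libraries at hand, and this may be technical.

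The miR-29 family is known for repressing messenger RNAs of collagens, elastin and other matrix proteins, and those of DNA methyltransferases. Its guides share a seed, the stretch of bases 2 to 8 that pairs with target messages, and differ behind it. They come from a pair of loci, each transcribed as an RNA that holds 2 hairpins: miR-29a is cut from the same transcript as the first miR-29b hairpin, and miR-29c from the same transcript as the second. In breast carcinoma the family is best known for restraining matrix and invasion genes.

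The guide sequences are shown because the members are told apart by few bases, which bears on how reads were assigned. Capitals mark the seed. All sequences and positions are from RefSeq on GRCh38.p14, while per the submitters' processing notes the reads were aligned to hg19, and nothing was converted.
miR-29a-3p: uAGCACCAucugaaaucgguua
miR-29b-3p: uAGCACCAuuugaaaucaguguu
miR-29c-3p: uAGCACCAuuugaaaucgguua
Counted from the 5′ end, miR-29a-3p and miR-29c-3p differ by 1 substitution, C10U (first the base of miR-29a-3p, then that of miR-29c-3p). Between miR-29a-3p and miR-29b-3p there were 4, C10U, G18A, U21G and A22U, and miR-29b-3p is 23 bases long where the other guides have 22. An aligner that allows 1 mismatch could move reads between a and c; the mismatch setting is not given in the sources used here. The sum of the members does not depend on such a move, and miR-29b-3p is separated from both by its end.

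The hairpins are shown to place the counted arm, with the guide in capitals. All 4 lie on the minus strand.
MIR29A, chr7:130876747-130876810: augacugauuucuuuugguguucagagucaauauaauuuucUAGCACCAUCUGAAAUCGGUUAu
MIR29B1, chr7:130877459-130877539: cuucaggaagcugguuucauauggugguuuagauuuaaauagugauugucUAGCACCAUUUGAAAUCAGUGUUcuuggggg
MIR29B2, chr1:207802443-207802523: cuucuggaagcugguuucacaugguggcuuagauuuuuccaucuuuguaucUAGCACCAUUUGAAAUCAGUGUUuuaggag
MIR29C, chr1:207801852-207801939: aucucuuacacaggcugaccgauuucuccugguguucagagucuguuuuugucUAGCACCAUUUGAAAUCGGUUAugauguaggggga
On chromosome 7, 648 bases separate MIR29A from MIR29B1, and GENCODE release 29 places both in an intron of the long non-coding RNA AC016831.6, with MIR29B1 also inside an exon of LINC-PINT. On chromosome 1, 503 bases separate MIR29C from MIR29B2, and both lie in an exon of MIR29B2CHG, their annotated host. Since MIR29B1 and MIR29B2 give the same guide, a miR-29b-3p read does not show its locus.

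The libraries were shallow, with 11563 to 47863 counts in shNC and 12859 to 14692 in shMCU, so that 3 counts, the limit that a count of 0 allows, correspond to between 62.7 and 259 CPM (counts scaled to a common total of listed counts). Intervals and limits cover counting error only, as the kit is not stated to mark single molecules. The 5 miRNAs taken as abundant in this line, such as miR-21-5p and miR-221-3p, summed to 257874 to 366630 CPM per library. The epithelial miR-200 family and miR-205-5p, which the line is known to lack, were not absent and summed to between 340 and 2076 CPM per library. This sum is without miR-141-3p, which was not listed under that name. miR-205-5p alone ran from 0 CPM in shMCU replicate 2 to 1211 CPM in shNC replicate 2. The transcript of MCU is not measured by small RNA libraries, so the knockdown was not checked here.

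As the reads were assigned, miR-29a-3p made up nearly the whole family signal in every library. Over the 6 libraries, 1104 of 1131 miR-29 guide counts were miR-29a-3p, 26 were miR-29b-3p and 1 was miR-29c-3p. The share of miR-29a-3p ran from 96.4% to 97.7% in shNC and from 95.6% to 100% in shMCU libraries. In levels the order was a above b in all 6 libraries, while b and c were both at or under 3 counts in each shMCU library and could not be ordered there. The opposite arms of these hairpins, normally degraded when the guide is loaded, held 7 counts in all. Of these, 3 belonged to miR-29a-5p.

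The most abundant member, miR-29a-3p, was counted 421, 135 and 215 times in replicates 1, 2 and 3 of shNC and 156, 112 and 65 times in those of shMCU. Scaled to the library total, these were 8796, 11675 and 10813 CPM in shNC and 12065, 7623 and 5055 CPM in shMCU. The highest and the lowest values were both in shMCU libraries, and the groups overlapped. The shNC mean was 10428 ± 1478 CPM (SD, n = 3), and the shMCU mean 8248 ± 3547 CPM (SD, n = 3). Within a library, miR-29a-3p ranked from 17 to 24 by count among all listed miRNAs.

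**Figure D1:**
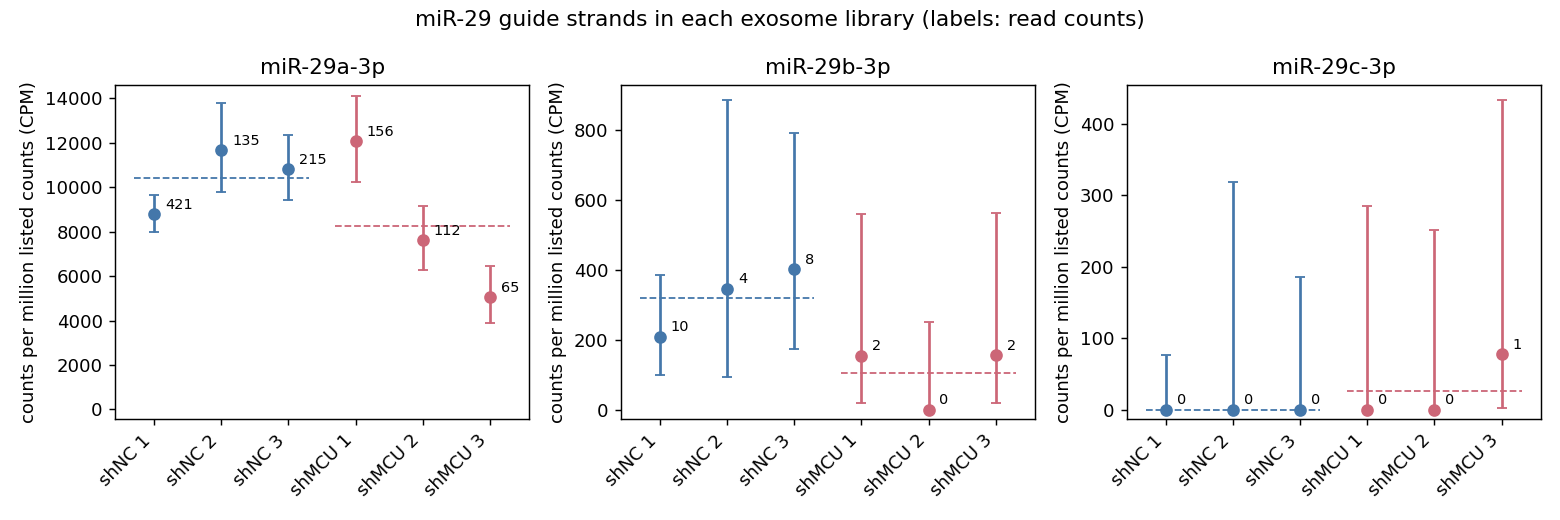
Level of each guide strand (CPM, y axis) in each library (x axis), with exact 95% counting intervals as bars, read counts as labels and dashed lines at group means. miR-29a-3p overlapped between groups, from 5055 to 12065 CPM in shMCU; miR-29b-3p lay between 209 and 402 CPM in shNC and between 0 and 156 CPM in shMCU; miR-29c-3p had 1 count in all.

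The fitted fold of miR-29a-3p in shMCU over shNC was 0.89, with a 95% interval from 0.58 to 1.38, so it was fitted lower, as were 51.9% of the tested miRNAs, and did not pass the test (log2 fold change -0.16 ± 0.28 SE, adjusted p = 0.89, edgeR's quasi-likelihood test with Benjamini-Hochberg adjustment over 79 tested miRNAs). In that comparison 0% of the tested miRNAs passed an adjusted p of 0.05, 3 had an unadjusted p under 0.05, and DESeq2 called 1, miR-122-5p. The fit uses TMM scaling, which corrects for a shift of most miRNAs. Scaled by library totals only, the median over the tested miRNAs moved from -0.02 to -0.24 (log2 fold change), and miR-29a-3p from -0.16 to -0.34. Its value also rested on shMCU replicate 3: without that library the log2 fold change was -0.0021, and without shMCU replicate 1 it was -0.45.

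shMCU replicate 3, the library with the least miR-29a-3p, also held the most miR-122-5p, a miRNA characteristic of hepatocytes, at 103663 CPM against 12281 to 37231 CPM in the other 5 libraries. Of the 13 markers of liver, blood, muscle and neural cells, 11 were listed under the names looked up. Each of the 503 listed miRNAs had at least 1 count in some library, so being listed sets no level. The sum of these 11 was 13837 to 24695 CPM in shNC and 25445 to 104907 CPM in shMCU, most of it miR-122-5p. It leaves out the muscle marker miR-1-3p, which the tables list under its older name, miR-1. The mean of miR-1 was 901 CPM in shNC and 818 CPM in shMCU. The red cell marker miR-451a was at 146 to 309 CPM over all libraries. Higher maxima were seen for the blood marker miR-486-5p, at 173 to 700 CPM, and the neural marker miR-9-5p, at 77.8 to 1293 CPM. Some of these values are under 3 counts. In shNC replicate 2, where 3 counts are 259 CPM, miR-451a and miR-486-5p were each at 173 CPM. The 77.8 CPM of miR-9-5p was in shMCU replicate 3, where 3 counts are 233 CPM. The part of these RNAs in the miR-29a-3p level was not tested.

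miR-29b-3p, the second product of the miR-29a transcript and also cut from the second locus, was low in both groups. Reads numbered 10, 4 and 8 in replicates 1, 2 and 3 of shNC and 2, 0 and 2 in those of shMCU. These are 209, 346 and 402 CPM in shNC and 155, 0 and 156 CPM in shMCU. Every shMCU library lay below every shNC library, as for 5.37% of all 503 listed miRNAs and 10.1% of the 79 tested. At the pooled shNC rate, 3.59, 4.08 and 3.57 counts would fall in shMCU replicates 1, 2 and 3, so the separation rests on differences of a few reads. Given its total, a count of 0 in the second shMCU library allows up to 204 CPM at 3 counts, and its exact 95% interval reaches 251 CPM, above the lowest shNC value of 209 CPM.

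Pooled over libraries, miR-29b-3p had 22 of 79310 counts in shNC and 4 of 40481 in shMCU, a ratio of 0.356 with an exact 95% interval from 0.0892 to 1.05 that includes 1. This miRNA was under the filter of the main test (edgeR's filterByExpr, minimum count 10). In the same model fitted over all 503 miRNAs its fold was 0.35 (95% interval 0.11 to 1.07), and it did not pass (log2 fold change -1.51 ± 0.82 SE, adjusted p = 0.68 and unadjusted p = 0.066, edgeR's quasi-likelihood test). In that fit 0.199% of the miRNAs passed, which is miR-375 alone. Without shMCU replicate 2, the library at 0, the log2 fold change of miR-29b-3p was -0.96.

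miR-29c-3p was not detectable in most libraries. Its single count was in shMCU replicate 3, which corresponds to 77.8 CPM with an exact 95% interval from 1.97 to 433 CPM. In shNC it had 0 of 79310 counts, which allows up to 37.8 CPM over the group. No fold is given, since both groups were at or under 3 counts. The closest member in sequence, miR-29a-3p, had 65 counts in the library with that read; the assignment of single reads was not analysed here.

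Because miR-29a and the first miR-29b hairpin share a transcript, the ratio of their guides was followed within each library, where it does not depend on scaling. There were 42.1, 33.8 and 26.9 miR-29a-3p counts for each miR-29b-3p count in shNC replicates 1, 2 and 3, and 78.0 and 32.5 in shMCU replicates 1 and 3. In shMCU replicate 2, with no miR-29b-3p count, the ratio was at least 37.3 at 3 counts per library. The value of shMCU replicate 3 lay inside the shNC range and that of shMCU replicate 1 above it.

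**Figure D2:**
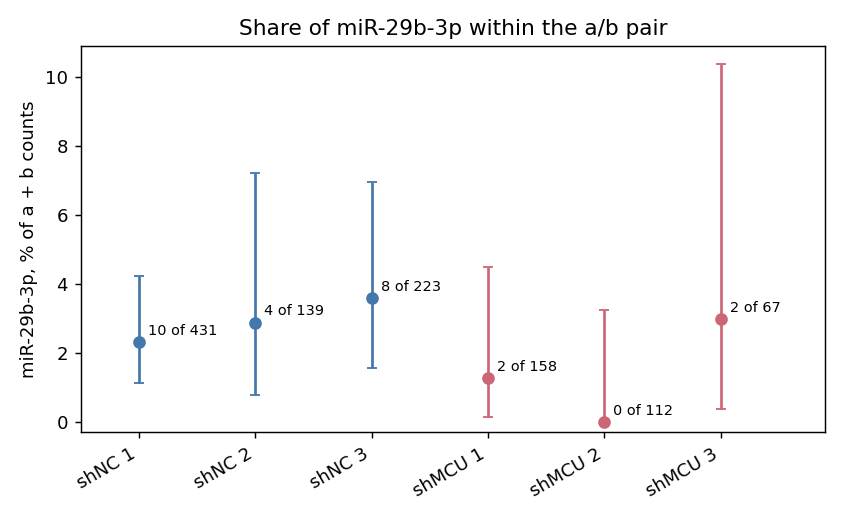
Percent of miR-29a-3p plus miR-29b-3p counts held by miR-29b-3p (y axis) in each library (x axis), with exact 95% binomial intervals; labels give counts. Shares were 2.32% to 3.59% in shNC and 0% to 2.99% in shMCU, and all intervals overlapped.

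Expressed as a share of both guides, miR-29b-3p held 2.32%, 2.88% and 3.59% in shNC replicates 1, 2 and 3, and 1.27%, 0% and 2.99% in shMCU replicates 1, 2 and 3. Exact (Clopper-Pearson) 95% intervals were wide, from 1.12% to 4.23% in the deepest library and from 0.364% to 10.4% in shMCU replicate 3. The 0 of 112 counts in shMCU replicate 2 allow a share of up to 2.68% at 3 counts, and the exact interval reaches 3.24%. Means were 2.93% ± 0.635 (SD, n = 3) and 1.42% ± 1.5, a difference of -1.51 percentage points (shMCU minus shNC). This difference is larger than either SD, but the groups overlapped and the test did not separate them (two-sided exact permutation test, p = 0.30, adjusted over the 2 shares tested p = 0.60; the smallest p that 3 against 3 allows is 0.1). For miR-29c-3p the share of the family was 0% in each shNC library and 1.47% in shMCU replicate 3, and the test gave p = 1.0 (exact permutation test, two-sided, p = 1.0 also after adjustment). The difference in the miR-29b-3p share was -0.80 points when shMCU replicate 2 was left out and -2.30 points when shMCU replicate 3 was left out.

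Summed over the guides, which bind the same seed sites, the family was counted 431, 139 and 223 times in replicates 1, 2 and 3 of shNC and 158, 112 and 68 times in those of shMCU. These sums were 0.90%, 1.20% and 1.12% of each shNC library, and 1.22%, 0.762% and 0.529% of each shMCU library. The highest sum was in shMCU replicate 1, and the groups overlapped. Means were 10747 ± 1562 CPM (SD, n = 3) and 8377 ± 3527 CPM, a ratio of 0.779 or a log2 ratio of -0.36, smaller than the SD of log2 CPM within groups of 0.46. With TMM-scaled library sizes the log2 ratio was -0.19. Leaving out shMCU replicate 3 gave -0.12, and leaving out shMCU replicate 1 gave -0.74.

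**Figure D3:**
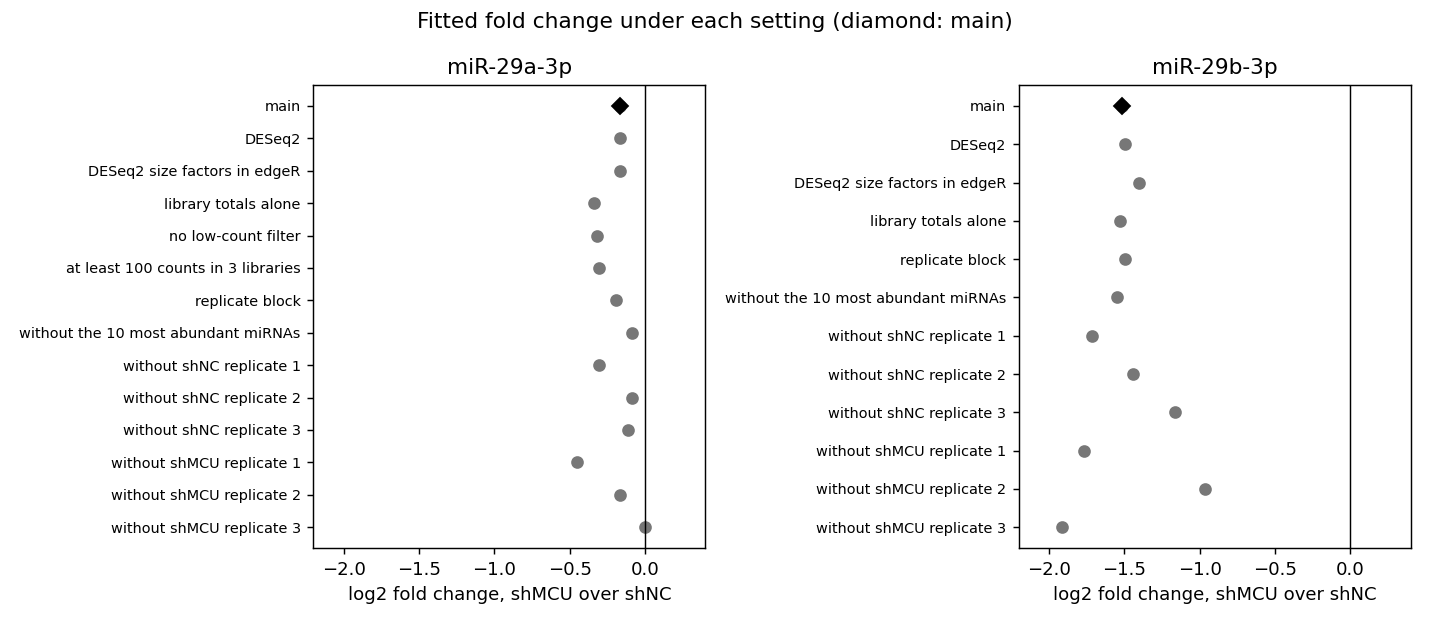
Log2 fold change of miR-29a-3p and miR-29b-3p (x axis, shMCU over shNC) under each setting (y axis); diamonds mark the values given first in the text. Values of miR-29a-3p lay between -0.45 and -0.0021 and those of miR-29b-3p between -1.91 and -0.96.

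Compared with other groups of matched miRNAs that share a seed, the miR-29 guides were dominated by a single member. Of the listed miRNAs, 437 (86.9%) were matched to a RefSeq sequence and fell into 373 seed groups. Members with no matched sequence were not grouped, and some were abundant. miR-320a, at a mean of 8265 CPM, is not in the group led by miR-320b, which summed to 2944 CPM. miR-30d-5p, at 7937 CPM, is not in the group led by miR-30a-5p. Group ranks, leaders and leading shares therefore hold for matched members only. By mean CPM the miR-29 group ranked 13 of the 373, and no other matched miRNA had its seed. In the 13 groups with at least 3 matched miRNAs, the leading member held a median of 71.1% of the group's counts pooled over libraries. miR-29a-3p held 97.6%, the highest of the 13, followed by miR-100-5p with 95.6% and miR-148a-3p with 94.8% of their groups. These are descriptions of the pooled counts and were not tested. The share of miR-29a-3p also depends on how reads were assigned between it and miR-29c-3p, which differs by 1 base.

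**Figure D4:**
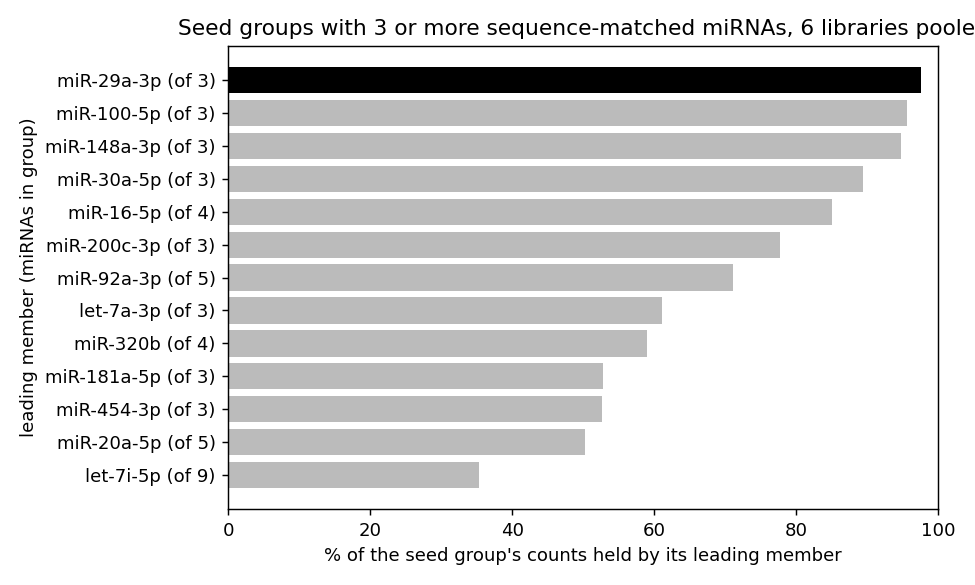
Percent of each seed group's counts held by its leading member (x axis), for 13 groups with at least 3 sequence-matched miRNAs (y axis, named by the leading member), over the 6 libraries pooled. The miR-29 group, in black, is at 97.6%, and the let-7 group at 35.3%. Unmatched miRNAs, miR-320a and miR-30d-5p among them, are not counted in their groups.

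Short motifs linked in other work to exosome loading (GGAG and CCCU, linked to hnRNPA2B1, and GGCU, linked to SYNCRIP in mouse hepatocytes) were looked for in the RNA letters of the guides, on the given strand only. None of the 3 guides held any of them, while 9.84%, 8.47% and 12.8% of the 437 matched miRNAs did, respectively. The end motif AGUGUU, which was described as directing miR-29b to the nucleus, was in miR-29b-3p and in neither other guide, and in 0.686% of the matched miRNAs. A match or its lack describes the letters only.

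By mean CPM over all libraries, miR-29a-3p stood at position 19 of the 79 tested miRNAs, at 9338 ± 2708 CPM (SD over 6 libraries). The 2 next above were miR-221-3p at 11768 ± 3047 CPM and miR-27a-3p at 10666 ± 2707 CPM, and the 2 next below let-7b-5p at 9218 ± 962 CPM and miR-423-5p at 8425 ± 2640 CPM. Ranges over the libraries overlapped for each of them with miR-29a-3p, which ran from 5055 to 12065 CPM.

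The pattern of miR-29a-3p over the 6 libraries was most like those of miR-30e-5p (Pearson's r = 0.93 of TMM-scaled log2 CPM), miR-93-5p (r = 0.93), miR-21-5p (r = 0.92), miR-138-5p (r = 0.91) and miR-20a-5p (r = 0.88). All 5 were lowest in shMCU replicate 3, as miR-29a-3p was. These values share library and depth, and with 6 points from 2 groups they are a description. Counts were low for some of them, with 6 of miR-30e-5p and 2 of miR-138-5p in shMCU replicate 3. miR-30e-5p ran from 467 to 3027 CPM, miR-93-5p from 1089 to 5708 CPM and miR-20a-5p from 1244 to 6187 CPM.

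**Figure D5:**
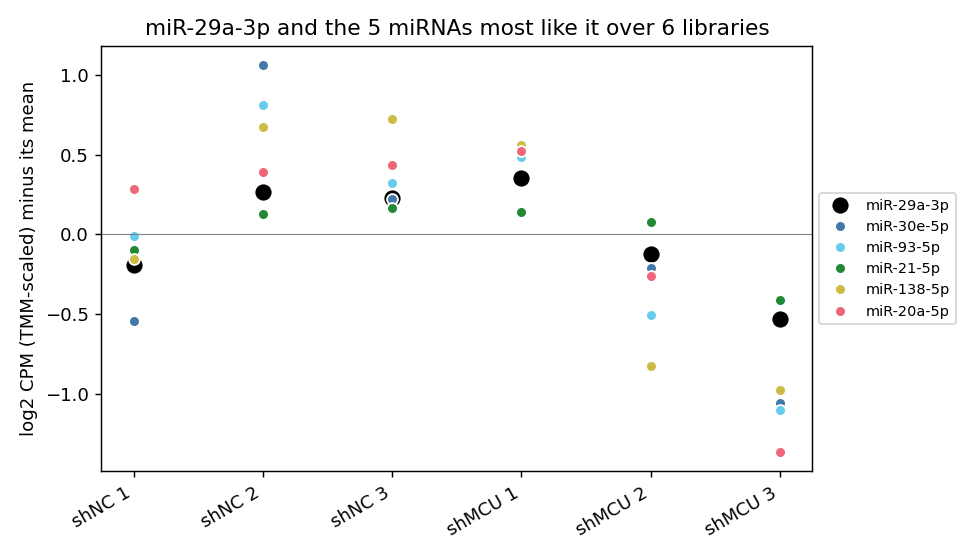
TMM-scaled log2 CPM minus its mean over the 6 libraries (y axis) for miR-29a-3p (large black points) and the 5 tested miRNAs with the highest correlation with it, by library (x axis). In shMCU replicate 3 all 6 are below their means, miR-29a-3p by -0.53 and miR-20a-5p by -1.37.

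Other miRNAs linked to matrix and fibrosis did not pass the test. Of 18 on the list, 8 were tested and 0 passed; 5 were fitted higher and 3 lower in shMCU, or 4 and 4 when scaled by library totals only. Their median log2 fold change was 0.14 against -0.02 for all tested. The most abundant were miR-21-5p, linked to fibrosis, at a fold of 0.92 (95% interval 0.64 to 1.33), and miR-30a-5p at 0.84 (0.52 to 1.35). They were followed by miR-7-5p at 1.24 (0.86 to 1.80) and miR-26a-5p at 0.81 (0.54 to 1.20). Adjusted p of these 4 lay between 0.71 and 0.92 (edgeR's quasi-likelihood test).

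miRNAs reported to target DNA methyltransferases or TET enzymes, as miR-29 does, gave a like count. Of 10, 6 were tested and 0 passed, with 4 fitted higher and 2 lower, or 2 and 4 with library totals alone, and a median of 0.12. miR-148a-3p, which targets DNMT1, had a fold of 2.13 (95% interval 0.88 to 5.16), miR-148b-3p of 1.16 (0.73 to 1.86) and miR-22-3p, a regulator of TET enzymes, of 0.91 (0.55 to 1.51). Of 7 miRNAs from the chromosome band of the a/b locus, 2 were tested and 0 passed. They were miR-183-5p at a fold of 1.58 (0.93 to 2.69) and miR-182-5p at 1.11 (0.59 to 2.06). With library totals alone miR-182-5p was fitted lower (log2 fold change -0.11). Neither of the 2 miRNAs listed for the band of the b/c locus, miR-205-5p and miR-135b-5p, had enough counts to be tested.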

How the data were processed

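For each library the authors deposited a table of raw read counts by mature miRNA; this unit follows from the values (whole numbers with unequal sums). Bowtie and hg19 are named per the submitters' processing notes; not given in the sources used here are the version, mismatch setting, counting tool and miRNA release. Libraries were grouped by their titles. The members and lists were chosen with earlier results of these data known. Counts were fitted over the whole table with edgeR 4.0.16 (quasi-likelihood F test, robust, TMM) in R 4.3.3; 79 of 503 miRNAs passed filterByExpr (minimum count 10) and held 95.5% to 96.6% of each library's counts. SE is the log2 fold change over the square root of F. CPM use all listed counts and are not TMM-scaled. The model was tested on simulated data. Named miRNAs are the members, the other miR-29 arms, up to 4 tested members per list by mean CPM, the 5 tested miRNAs most correlated with miR-29a-3p and its 2 neighbours on each side in mean CPM. Marker miRNAs (miR-122-5p and miR-451a among them), leaders of seed groups and untested list members are named besides. miR-320a and miR-30d-5p are named as members missing from their seed groups. miR-375 belongs to none of these and was named after seeing its values. Alternatives were DESeq2 1.42.0, its size factors, library totals, other filters, a replicate block, removal of the 10 most abundant miRNAs and each library left out. No columns of other samples were present.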

Additional observations from a re-analysis of the deposited data

How the results depend on the processing

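No fold change of miR-29a-3p or miR-29b-3p passed or changed direction under any of the alternatives run. The log2 fold change of miR-29a-3p kept its sign in 13 of 13, between -0.45 and -0.0021 when a library was left out (adjusted p from 0.42 to 0.99 over all alternatives, edgeR or DESeq2). That of miR-29b-3p kept its sign in 11 of 11, between -1.91 and -0.96 with a library left out (adjusted p from 0.68 to 0.999 over all alternatives, edgeR or DESeq2). The filter of 100 counts in 3 libraries leaves miR-29b-3p without a value. For miR-29c-3p, with 1 count, no fold change is reported from any fit. Calls at an adjusted p of 0.05 numbered 0 over the table and 0 with each library left out, but 1 with DESeq2 (miR-122-5p, adjusted p = 0.0105) and 1 without a filter (miR-375, adjusted p = 0.0095, edgeR's quasi-likelihood test); the cause was not tested. At an unadjusted p under 0.05 there were 3, and 1 to 12 with a library left out. The log2 ratio of the family sum ran from -0.74 to -0.12 and the difference in the miR-29b-3p share from -2.30 to -0.80 percentage points with a library left out. The difference in the miR-29c-3p share ran from 0 to 0.735 points, being 0 without shMCU replicate 3, which holds its only count. Same-numbered libraries did not pair, with correlations of their deviations of 0.16, -0.35 and 0.08. In no same-numbered pair were the libraries each other's best match. The replicate block gave 0 calls and log2 fold changes of -0.19 for miR-29a-3p and -1.50 for miR-29b-3p. Depth limits the family below miR-29a-3p, since 3 counts are up to 259 CPM.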
